A study of Mus musculus with 2 samples.

Results

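The regions described here were both ends of the 19 mouse autosomes in whole genome bisulfite sequencing (WGBS) of primary osteoblasts. For each autosome, the proximal end was the first 3 Mb after the first CG cytosine with a call, on the centromere side, and the distal end was the last 3 Mb before the last such cytosine, on the telomere side. Each end was cut into 100 kb windows, and a window was kept when at least 100 CG cytosines had calls in each library. This gave 570 proximal and 570 distal windows, 1140 of the 24020 windows kept on the autosomes, and the other 22880 formed the rest of the chromosomes. The 24 windows left out all lay in the rest, so every end kept its 30 windows.

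Cells came from 3-day-old C57BL/6 mice, with 1 library labelled wild type (WT) and 1 library from the triple conditional knockout (TCKO), which carried the Prx1-Cre transgene and floxed alleles of all 3 Tet genes (Tet1fl/fl, Tet2fl/fl and Tet3fl/fl). Prx1-Cre deletes floxed DNA in mesenchymal cells of the limb bud and part of the skull, and cells of a culture that never expressed Cre keep the Tet genes. How many animals gave each library, and whether the WT mice carried floxed alleles or Cre, was not given in the sources used here. With 1 library per genotype there was no replicate check. Every test compared the libraries and not the genotypes, and every interval is a 95% interval for counting error only. Tests and intervals took each call as a separate observation. Calls of neighbouring cytosines can come from the same read, so p-values and interval widths can be too small. The WT library held 261062118 calls on the nuclear chromosomes and the TCKO library 223581206, with 0.855 times the WT calls over the autosomal windows. Calls over some exons of each targeted gene fell in TCKO. Exon 11 of Tet1 fell from 62 WT calls to 1 TCKO call and exon 9 of Tet3 from 14 to 0, while exon 11 of Tet2 kept 46 of 155 and exon 12 of Tet1 kept 23 of 95. Calls over other exons varied too, as exon 1 of Tet2 kept 14 of 46 while exon 7 of Tet1 went from 141 to 146. Which of these drops mark deleted exons was not tested.

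Mouse chromosomes are telocentric, so the assembled sequence of each autosome begins on the side of the centromere and runs towards the telomere at the other end. The DNA next to a centromere is rich in satellite repeats and usually packed as heterochromatin with high CG methylation, and the DNA next to a telomere often holds young gene families and segmental duplications. TET1, TET2 and TET3 oxidise 5-methylcytosine (5mC) to 5-hydroxymethylcytosine (5hmC) and beyond, a step towards an unmethylated cytosine, mostly at enhancers and promoters. Bisulfite sequencing reads 5mC and 5hmC alike as methylated.

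Of the 18 autosomes whose terminal bases were examined, 17 had TTAGGG, the unit of the telomere repeat, in their last 100 bases (at least 15 copies on 15 of them) and none had it in the first 100. The exception was chromosome 4. Within the 100 kb windows, 2 copies of the unit in tandem, searched on both strands, occurred in 13 of 19 outermost distal windows (68.4%), in 0 of 19 outermost proximal windows and in 4.49% of all windows. The last CG call lay 139 to 2090 bp inside the last assembled base, and the first call 21 to 826 bp inside the first, so the calls reached close to the assembled termini. On the proximal side the first assembled base stood at position 3000001 to 3100001, after a gap of unassembled sequence. Proximal distances therefore start at the edge of that gap and not at the centromere. Satellite DNA of the centromere was not examined.

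The following 6 bins of 200 bp are among those with the clearest local changes by test within the ends. They are 2 proximal and 3 distal bins taken from those with the lowest p among the bins that gained, and the distal bin with the lowest p among those that lost methylation, under the rule for differentially methylated bins given further on. All are on the plus strand of GRCm38, and capitals mark the CG dinucleotides. The first proximal bin (chr13:5714401-5714600, in an intron of the lincRNA Gm35330 and 146981 bp from the start of Klf6, a zinc finger transcription factor) went from 3.30% to 86.8%. The second (chr13:4662801-4663000, in an intron of the lincRNA Gm40658) went from 9.73% to 90.1%.
gain near Klf6: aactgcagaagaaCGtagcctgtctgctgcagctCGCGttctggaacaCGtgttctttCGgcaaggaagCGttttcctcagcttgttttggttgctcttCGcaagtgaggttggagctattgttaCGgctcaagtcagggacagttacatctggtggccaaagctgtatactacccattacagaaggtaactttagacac
gain in Gm40658: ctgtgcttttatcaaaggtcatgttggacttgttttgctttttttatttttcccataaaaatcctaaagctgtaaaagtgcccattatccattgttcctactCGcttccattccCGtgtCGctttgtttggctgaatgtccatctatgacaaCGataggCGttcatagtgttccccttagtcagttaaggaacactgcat

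The distal bins lay in introns. One was in Kcnj15, which encodes an inwardly rectifying potassium channel (chr16:95285001-95285200), and went from 0.952% to 81.0%. The next was in Erg, which encodes an ETS transcription factor (chr16:95481001-95481200), and went from 10.8% to 87.1%. The last was in Wdr95 (chr5:149568801-149569000), with 0 of 79 calls methylated in WT, which allows a level of up to 4.64% by the Wilson interval, and 80.7% in TCKO.
gain in Kcnj15: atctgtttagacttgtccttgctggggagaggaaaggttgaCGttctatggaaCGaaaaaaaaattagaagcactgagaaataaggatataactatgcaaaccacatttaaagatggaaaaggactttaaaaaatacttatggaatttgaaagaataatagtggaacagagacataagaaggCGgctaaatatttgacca
gain in Erg: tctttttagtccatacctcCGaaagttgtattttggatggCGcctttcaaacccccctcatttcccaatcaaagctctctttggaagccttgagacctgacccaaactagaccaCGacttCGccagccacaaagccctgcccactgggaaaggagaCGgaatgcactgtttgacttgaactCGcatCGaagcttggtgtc
gain in Wdr95: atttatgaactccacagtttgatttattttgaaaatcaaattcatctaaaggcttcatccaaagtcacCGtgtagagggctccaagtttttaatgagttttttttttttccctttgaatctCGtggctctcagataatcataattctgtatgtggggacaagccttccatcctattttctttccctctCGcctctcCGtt

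The bin that lost methylation was of a different make. It lay in an intron of Lrrc7 (chr3:158414001-158414200), has 9 CG dinucleotides in 1 alternating run within a CA repeat, and went from 68.1% of 91 calls to 0 of 46. Only 9 CG cytosines of this bin, counting both strands, had calls. In the 5 bins that gained, both cytosines of every CG dinucleotide had calls. Masked repeat made up 51.5% of the Lrrc7 bin, and 0 to 28.5% of the 5 bins that gained.
loss in Lrrc7: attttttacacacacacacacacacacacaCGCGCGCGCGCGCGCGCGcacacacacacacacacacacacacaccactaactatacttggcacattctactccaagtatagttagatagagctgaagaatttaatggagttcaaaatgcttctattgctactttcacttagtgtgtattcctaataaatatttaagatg

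The 5 bins that gained held 3 to 8 CG dinucleotides each, with 79 to 182 calls in WT and 111 to 124 in TCKO, and their adjusted p-values (2-sided Fisher exact test on calls, Benjamini-Hochberg over all testable bins) ran from 5.23e-49 to 3.23e-30. For the loss in Lrrc7 the adjusted p by the same Fisher exact test was 7.04e-14.

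CG methylation was higher in the TCKO library at both kinds of end. Over the 570 proximal windows it was 70.6% of 5900719 calls in WT and 75.4% of 5023993 calls in TCKO, a gain of 4.77 percentage points (4.72 to 4.82). Over the 570 distal windows it was 68.2% of 5241163 calls in WT and 74.3% of 4450672 calls in TCKO, a gain of 6.13 points (6.07 to 6.19). The rest of the autosomes went from 70.4% to 76.7%, a gain of 6.27 points. The difference of gains, ends minus rest, was thus -1.497 points (-1.55 to -1.44) at the proximal ends and -0.137 points (-0.195 to -0.0796) at the distal ends. Before any gain, the WT level of the distal ends lay below the rest, with a difference of -2.24 points (-2.28 to -2.20), and that of the proximal ends 0.183 points above it (0.145 to 0.220). The proximal WT difference and the distal difference of gains were small and lost their call or changed sign under several alternatives. Without chromosome 18 the first kept its sign with an interval that included 0 (0.0366 points), and the second changed sign (0.0224 points, with 0 in its interval).

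The ends differed from the rest in their make-up. Bases masked as repeat in the reference took 39.97% of the proximal windows, 32.04% of the distal windows and 33.4% of the rest. CG cytosines with calls stood at 14.97, 15.9 and 15.6 per kb. Protein-coding start sites were denser at the ends, with 11.2 per Mb at the proximal and 13.1 per Mb at the distal ends against 8.51 in the rest. The mean depth was 6.26 WT and 5.33 TCKO calls per CG cytosine at the proximal ends, 5.30 and 4.50 at the distal ends and 6.17 and 5.28 in the rest.

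The gain varied with the distance from the terminus. In the outermost 100 kb the proximal level was 67.9% in WT and 67.1% in TCKO, a difference of -0.782 points (-1.03 to -0.535), and the distal level was 71.2% and 72.2%, a difference of 1.003 points (0.686 to 1.32). Of the 19 outermost proximal windows 14 were lower in TCKO, by a median of -1.08 points over the 19. Of the 19 outermost distal windows 13 were higher, with a median of 0.570 points. Over the outer 500 kb, a distance chosen after the data were seen, the proximal gain was 2.10 points (1.97 to 2.23) and the distal gain 2.43 points (2.28 to 2.58). Between 0.5 and 1 Mb they were 4.65 and 5.32 points, and between 1 and 2 Mb 5.43 and 6.67 points. At 1 to 2 Mb the distal gain was thus already above that of the rest and the proximal gain below it. At 2 to 3 Mb the proximal gain was 5.68 points, still below the 6.27 points of the rest, and the distal gain 7.48 points, above it. Further in, out to 10 Mb, the gain ran from 5.26 to 5.62 points on the proximal side and from 5.98 to 7.27 points on the distal side. The steepest change lay within the outer 1 Mb, although the distal gain kept rising to 2 to 3 Mb.

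**Figure D1:**
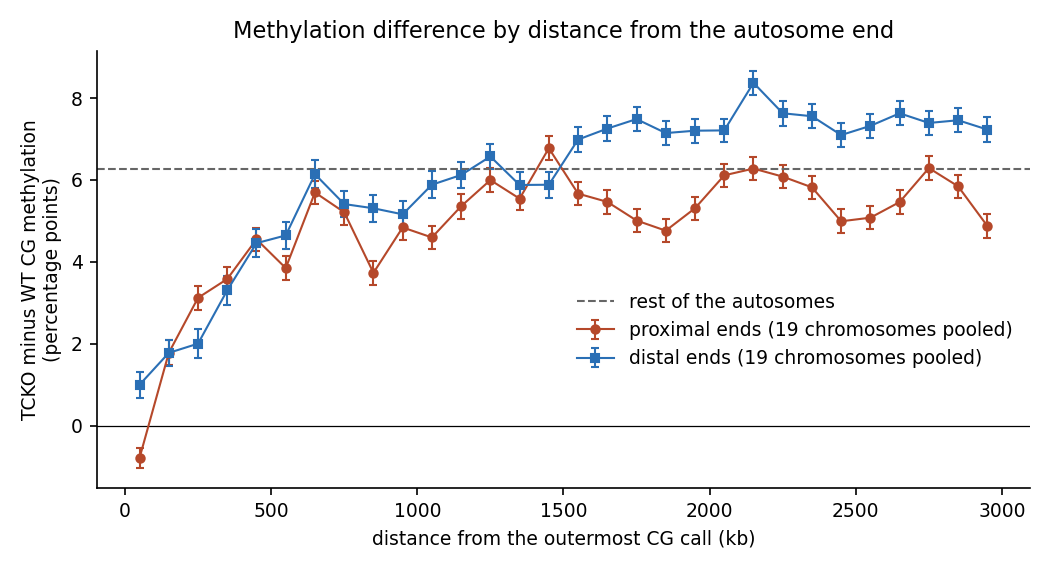
Difference in CG methylation between the TCKO and WT libraries (vertical axis, percentage points of pooled calls) in successive 100 kb windows from the outermost CG call (horizontal axis, kb), pooled over 19 chromosomes, with 95% intervals for counting error. The outermost points stand at -0.782 (proximal) and 1.003 (distal), both lines climb over the outer 500 kb, and the distal line lies above the dashed line of the rest (6.27 points) in every window from 1500 kb inwards, where the proximal line is mostly below it.

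The lower outer gain was present without any 1 chromosome. When each chromosome was left out in turn, the outermost proximal difference stayed between -1.06 (without chromosome 9) and -0.552 points, the gain of the outer 500 kb between 1.75 and 2.40 points at the proximal ends, and between 2.16 and 2.66 points at the distal ends. Leaving out cytosines with over 50 calls, where reads of unresolved copies can pile up, gave -0.578 points in the outermost proximal windows, which had 9.67 WT calls per CG cytosine, and 2.60 points over the proximal outer 500 kb. The distal outer 500 kb then gained 2.54 points. The WT level was lower in these 500 kb than in the rest, with a difference of -1.72 points at the proximal and -2.29 points at the distal ends, whereas the TCKO level lay further below, with -5.89 points at the proximal ends.

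Levels of single cytosines shifted less in the outer 500 kb too. Among cytosines with at least 4 calls in both libraries, the share with a level of 80% or more rose from 43.8% in WT to 49.6% in TCKO over the proximal outer 500 kb and from 43.6% to 48.9% over the distal outer 500 kb, while in the rest it rose from 47.4% to 59.5%. Over the whole 3 Mb the shares were 47.8% and 57.6% at the proximal and 45.2% and 56.6% at the distal ends. Cytosines at 20% or less went from 6.36% to 5.47% in the proximal and from 6.83% to 6.10% in the distal outer 500 kb, and from 6.38% to 3.73% in the rest. On the plus and minus strand the gain over the proximal 3 Mb was 4.59 and 4.96 points, and over the distal 3 Mb 6.04 and 6.22 points.

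Each end was compared with the rest of its own chromosome, where the gain ran from 4.44 to 7.15 points. The proximal gain ran from 0.0284 points on chromosome 8 to 9.08 points on chromosome 17, with a median of 5.23, and 15 of 19 proximal ends gained less than the rest of their chromosome (14 with an interval below 0, and 3 with an interval above it). The distal gain ran from 2.44 points on chromosome 17 to 8.52 points on chromosome 16, with a median of 6.15, and the distal ends were split, with 9 of 19 below the rest (8 by the interval, and 9 above). On 14 of 19 chromosomes the proximal gain was below the distal gain. Of the 38 ends, 17 proximal and 19 distal ends were higher in TCKO (2-sided Fisher exact test on calls, Benjamini-Hochberg over the 38 ends), and the tests compared libraries.

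Chromosome 8 and chromosome 14 had the flattest proximal ends. On chromosome 8 (chr8:3000264-6000263) the level was 68.62% in WT and 68.65% in TCKO (Fisher exact test, adjusted p = 0.835), with 8 of 30 windows lower in TCKO at an adjusted p below 0.05, and this end had 0.825 times the TCKO calls that the ratio of the libraries gives, the lowest of the 38. On chromosome 14 (chr14:3000098-6000097) it was 62.7% and 62.9% (Fisher exact test, adjusted p = 0.318), with 62.0% of bases masked and 72.0% of CG cytosines covered, the lowest coverage of the 38. The proximal ends of chromosomes 7, 9 and 1 followed, with gains of 1.13, 1.43 and 2.03 points. The end of chromosome 9 held the opposite depth to that of chromosome 8, with 1.12 times the TCKO calls that the ratio of the libraries gives. Whether depth bore on these gains was not tested. At the other extreme, the proximal end of chromosome 17 (chr17:3000204-6000203) went from 69.1% to 78.1%, higher in 30 of 30 windows, while its distal end had the smallest distal gain (67.1% to 69.5%).

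Proximal WT levels ran from 61.9% on chromosome 7 to 75.5% on chromosome 5, with an SD of 3.82 points over the 19 ends, and distal WT levels from 61.4% on chromosome 15 to 71.8% on chromosome 8, with an SD of 2.52 points. In the rest the range was 67.4% to 72.2%, with an SD of 0.970. The distal end of chromosome 15 was the lowest in WT and gained 6.34 points, close to its chromosome.

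**Figure D2:**
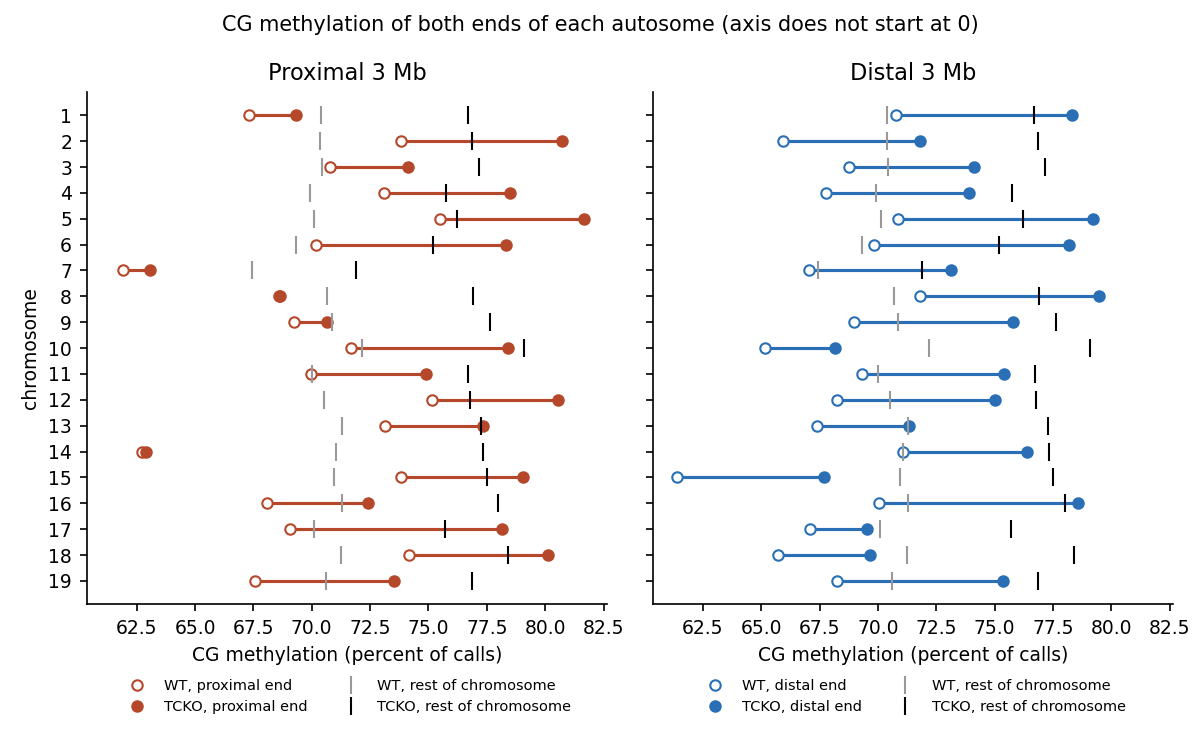
CG methylation (horizontal axis, percent of calls, not starting at 0) of the proximal and distal 3 Mb of each autosome (vertical axis) in WT (open circles) and TCKO (filled circles), with ticks for the rest of the chromosome in WT (grey) and TCKO (black). The circles of chromosomes 8 and 14 nearly coincide at the proximal end, and the longest line is that of the proximal end of chromosome 17 (69.1% to 78.1%).

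Within the outer 500 kb the comparison with the rest became much more uniform. There 18 of 19 proximal ends and 17 of 19 distal ends gained less than the rest of their chromosome, each with an interval below 0. The exceptions were the proximal end of chromosome 17, which gained 9.34 points, the distal end of chromosome 5, which gained 8.61 points, and the distal end of chromosome 7, where the difference was 0.0934 points (-0.717 to 0.903). The 5 outer distal windows of chromosome 5 had 1.17 to 1.57 times the TCKO calls that the library ratio gives. Whether depth bore on the gain there was not tested. The median gain was 1.87 points over the proximal and 3.23 points over the distal outer 500 kb, and 5 ends of each kind had a lower value in TCKO. Apart from the distal end of chromosome 13, the lowest value was that of the proximal end of chromosome 16 (61.7% to 59.1%, a difference of -2.55 points).

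The distal outer 500 kb of chromosome 13 stood apart, with 44.3% in WT and 34.5% in TCKO, a difference of -9.74 points that no single window of it reached. Its 5 windows differed by -6.06 to 3.89 points. The third from the end (chr13:120020925-120120924, with the genes Gm36079 and Gm21188) had levels of only 21.3% and 17.1%, and with 12791 and 11581 calls it kept its depth in TCKO (1.06 times the library ratio). The other 4 had 0.428 to 0.695 times the calls that the library ratio gives, at WT levels of 42.2% to 64.6%, so the pooled TCKO value gave more weight to the window of low level. When windows whose ratio of calls departed by over 1.5 times were left out (1 of 570 proximal and 7 of 570 distal windows), the distal outer 500 kb gained 2.41 points over all chromosomes. The number of copies of this DNA in each library was not tested.

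**Figure D3:**
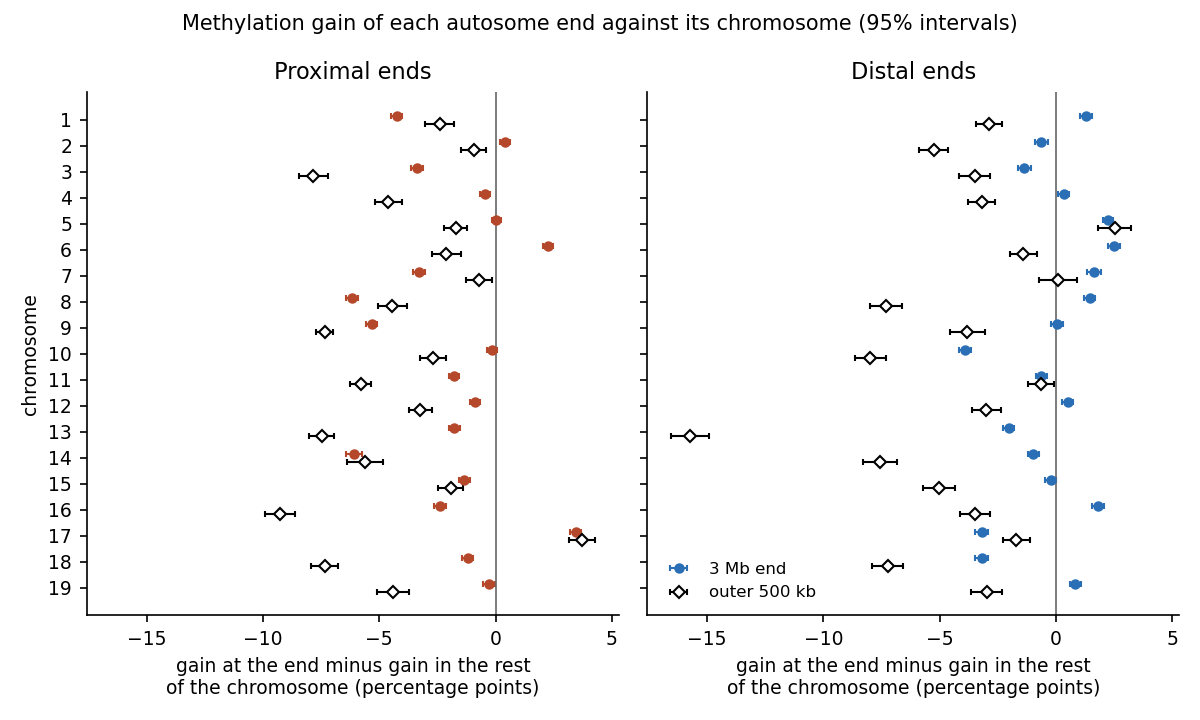
Gain in CG methylation at each end minus the gain in the rest of the same chromosome (horizontal axis, percentage points, with 95% intervals for counting error) for the 3 Mb end (filled circles) and its outer 500 kb (open diamonds), by chromosome (vertical axis). Nearly all diamonds lie left of 0 on both sides, while the filled circles do so for 15 of 19 proximal and 9 of 19 distal ends.

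The proximal difference was present at every CpG density. All autosomal windows were sorted into 5 classes of equal size, with limits at 9.57, 12.4, 16.6 and 21.4 CG cytosines per kb. The gain was smallest in the least dense class everywhere. In the rest it went from 3.64 points in the least dense class to 7.56 and 7.42 points in the densest classes, at the proximal ends from 2.43 to 6.26 points and at the distal ends from 3.49 to 7.12 points. From the least to the densest class the proximal gain was below the rest by a difference of -1.21, -1.44, -1.95, -1.56 and -1.16 points. The distal differences were -0.148, 0.483, -0.0235 (interval -0.158 to 0.111), -0.358 and -0.292 points. Weighted to equal density, the proximal gain differed from the rest by -1.52 points (-1.57 to -1.46) and the distal gain by -0.104 points (-0.161 to -0.0461). For the outer 500 kb the values were -4.48 points (-4.61 to -4.35) and -3.04 points (-3.19 to -2.89). Within the outer 500 kb the proximal gain stayed between 1.58 and 2.90 points in every class.

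**Figure D4:**
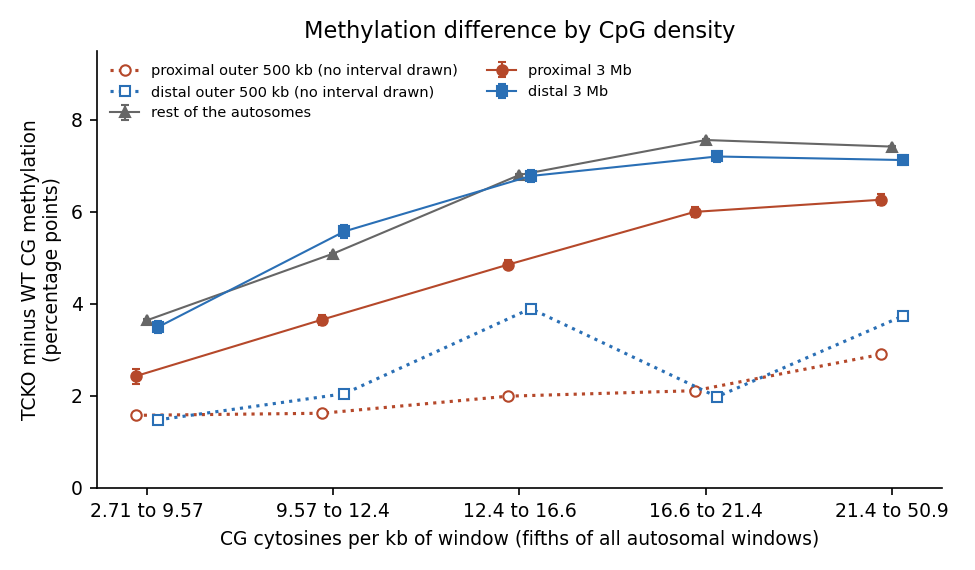
Difference in CG methylation between TCKO and WT (vertical axis, percentage points) by class of CG cytosines per kb of window (horizontal axis) for the rest of the autosomes, the 3 Mb ends (solid lines, with 95% intervals for counting error) and their outer 500 kb (dotted lines, without intervals). The proximal line runs below the rest in all 5 classes, the distal line runs close to it, and both dotted lines stay under 4 points.

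Repeat content moved with the gain more closely. Over the 19 proximal ends, the Spearman correlation of the gain with the share of masked bases was -0.812, against 0.553 with CpG density and -0.0965 with WT depth. Over the 19 distal ends it was -0.484, 0.304 and -0.349. All 38 ends share the same pair of libraries, and these values are descriptions. In windows of the highest class of masked bases (over 42.7%), which held 220 of 570 proximal and 107 of 570 distal windows, the gain was 1.495 points at the proximal ends, 1.37 at the distal ends and 2.34 in the rest. In the lowest class (up to 23.9%) it was 8.78, 8.18 and 8.31 points. The proximal gain was thus above the rest in the lowest class, as in the next (7.74 against 7.65 points), and below it in the more masked classes. At an equal share of masked bases, the proximal gain differed from the rest by -0.433 points (-0.486 to -0.379) in place of -1.497, and the distal gain by -0.277 points (-0.335 to -0.220). The difference in the outer 500 kb also became smaller, to -2.18 points (-2.31 to -2.06) at the proximal and -1.94 points (-2.09 to -1.79) at the distal ends.

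Split by cytosine, those in masked sequence started high and gained little everywhere. At the proximal ends they went from 73.6% to 74.8%, a gain of 1.20 points, while unmasked cytosines went from 69.0% to 75.7%, a gain of 6.67 points. At the distal ends the gains were 2.29 and 7.45 points, and in the rest 2.38 and 7.498 points. In the outer 500 kb, masked cytosines differed by -0.123 points (-0.313 to 0.0680) at the proximal and by 0.268 points (0.0443 to 0.492) at the distal ends. Unmasked cytosines there gained 3.75 points (3.58 to 3.92) and 3.98 points (3.78 to 4.19), under the 7.498 points of unmasked cytosines in the rest. In the outermost 100 kb unmasked cytosines differed by -0.339 points (-0.731 to 0.0536) at the proximal and by 2.27 points (1.82 to 2.72) at the distal ends. Unmasked sequence can still be repeated, as in segmental duplications, and reads from such copies align to 1 place only when they differ.

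Window by window, 45 of 570 proximal windows (7.89%) and 21 of 570 distal windows (3.68%) were lower in TCKO at an adjusted p below 0.05 (2-sided Fisher exact test on calls, Benjamini-Hochberg over all windows), where 4.44% of all autosomal windows were. Windows higher in TCKO numbered 452 proximal (79.3%) and 495 distal (86.8%), against 88% of all windows. The median gain per window was 4.90 points at the proximal ends, 6.23 points at the distal ends and 6.41 points over all windows. Of the lower windows, 21 of the 45 proximal and 13 of the 21 distal ones lay in the outer 500 kb. In the outermost 100 kb, 8 of 19 proximal and 4 of 19 distal windows were lower. Chromosome 7 held 10 of the proximal and chromosome 8 another 8, and chromosomes 13 and 10 held 6 and 5 of the distal ones.

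The proximal window with the largest gain held Col1a2, the gene of the alpha 2 chain of type I collagen and so of the main protein of bone matrix. This window (chr6:4450051-4550050, window 15 from the end) went from 55.7% of 11924 calls in WT to 78.1% of 10087 calls in TCKO, a gain of 22.4 points. The 2 kb upstream of Col1a2 went from 14.0% to 37.5% (Fisher exact test, adjusted p = 8.09e-06 over all promoters). The next was on chromosome 19 (chr19:5800119-5900118, with Frmd8, Slc25a45, Tigd3 and Dpf2, the last a subunit of a chromatin remodelling complex), from 50.2% to 66.2%. The third was within Arid1b, which encodes another subunit of such a complex (chr17:5100204-5200203), from 69.9% to 85.2%. All 3 had 17.6% to 24.6% of bases masked. The distal windows with the largest gain were those of Ppfibp1 (chr6:146886369-146986368, 57.8% to 78.4%) and of Stard13, which encodes a GTPase-activating protein (chr5:151034382-151134381, 64.8% to 82.7%), the promoter of which went from 41.1% to 81.1%. The third was a window without protein-coding genes on chromosome 18 (49.9% to 67.4%), which had 1.70 times the TCKO calls that the library ratio gives. The windows of Ppfibp1 and Stard13 had 1.25 and 1.14 times these calls. Whether depth bore on these gains was not tested.

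Among windows with at least 2000 calls in each library, those with the lowest differences lay on chromosomes 7, 8 and 13. The lowest proximal one (chr8:3800264-3900263) held Cd209e and Cd209d, which encode C-type lectins of immune cells, and went from 68.1% to 63.4%, a difference of -4.77 points, with 69.0% of its bases masked. On chromosome 7, a window with Nlrp2 and Gm5065 went from 59.7% to 55.3%, and a window with the vomeronasal receptor genes Vmn1r63 and Vmn1r64, 73.3% masked, from 60.7% to 56.4%. The distal ones were all on chromosome 13, where windows 2 and 5 from the end, with 1970 and 1921 TCKO calls, fell short of that minimum and had lower differences (-6.06 and -5.69 points). The outermost window (Gm21731, AF067061, BC147527 and Tcstv3) went from 64.6% to 60.2% at 0.597 times the library ratio of calls, the third window from 21.3% to 17.1%, and the eighth, with Tmem267, from 74.3% to 70.3% at 0.493 times that ratio.

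Promoters, taken as the 2 kb upstream of the start of protein-coding genes with at least 50 calls in each library, gained about as often at the ends as elsewhere. At an adjusted p below 0.05 (2-sided Fisher exact test on calls, Benjamini-Hochberg over all promoters), 155 of 605 proximal (25.6%) and 185 of 704 distal promoters (26.3%) were higher in TCKO, where 26.5% of all 20066 promoters were. Lower in TCKO were 24 proximal (3.97%) and 14 distal promoters (1.99%), against 2.24% of all.

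Among the largest proximal promoter gains were those of Lrrd1 (20.5% to 73.4%), Myadm (36.8% to 72.0%), Prkaa1, the gene of a catalytic subunit of AMP-activated protein kinase (36.5% to 70.4%), and Dusp18, the gene of a dual specificity phosphatase (37.4% to 71.2%). The largest proximal losses were those of Pacs1, which encodes a sorting protein of the Golgi (58.2% to 34.0%), and Ccs, the gene of the copper chaperone of superoxide dismutase (50.3% to 28.7%), both on chromosome 19. At the distal ends the largest gains were those of Ifitm10 (24.3% to 76.2%), Mxra8, which encodes a membrane protein related to matrix remodelling (3.00% to 50.5%), Morn1 (21.7% to 65.3%), Syt8, which encodes a synaptotagmin (25.9% to 68.6%), and Slc17a9, the gene of the vesicular nucleotide transporter (33.8% to 76.2%). The largest distal loss was that of Pcyt2, an enzyme gene of phosphatidylethanolamine synthesis (82.3% to 59.0%, Fisher exact test, adjusted p = 6.74e-06). The next value, that of the odorant receptor gene Olfr765 (62.7% of 75 calls and 41.1% of 56 calls), did not pass the test (Fisher exact test, adjusted p = 0.0674). Adjusted p-values of the other promoters named here ran from 1.14e-34 for Lrrd1 to 0.00011 for Ccs. Sp7, which encodes the osteoblast transcription factor osterix and lies at the distal end of chromosome 15, was looked up after the values were seen. Its promoter went from 68.8% to 84.3% (Fisher exact test, adjusted p = 0.0233).

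Several gene families sit at these ends. Families were taken by symbol prefix, and no test compared one with another or with all promoters, of which 26.5% were higher and 2.24% lower. Odorant receptor genes (Olfr) numbered 60 at the distal end of chromosome 10, and of the 54 with enough calls 1 was higher and 1 lower, with median levels of 61.5% in WT and 60.7% in TCKO. In the rest, 41 of 950 were higher and 21 lower, with medians of 63.0% and 62.6%. Vomeronasal receptor genes (Vmn1r) numbered 13 at proximal ends, 10 of them on chromosome 7. None of the 12 with enough calls passed the test in either direction, and in the rest 2 of 140 were higher and 7 lower. Their median level was 53.4% in WT and 51.5% in TCKO, although the median of their differences was 3.96 points, of the opposite sign. The genes with a Gm symbol, which marks predicted genes, numbered 88 at proximal ends, 60 of them on chromosome 14, and of the 63 with enough calls 5 were higher and 7 lower. At distal ends 7 of 30 Gm promoters were higher and none lower, with medians of 67.2% and 75.1%, and in the rest 167 of 958 were higher and 18 lower. Of the second vomeronasal family (Vmn2r), 1 proximal and 6 distal promoters had enough calls and none passed the test. The prefixes Defb, Hist, Pcdh and H2- had no member at the ends. These Olfr, Vmn1r and Gm genes lie mostly at the ends of chromosomes 10, 7 and 14, where the gain over all calls of the 3 Mb was 2.99, 1.13 and 0.176 points.

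Zinc finger genes (Zfp) and keratin genes (Krt) also sit at the ends. Of 12 proximal Zfp promoters 8 were higher and none lower, with medians of 32.1% and 47.8%, while 83 of 355 were higher in the rest, where medians were 50.9% and 55.5%. Of 9 distal Zfp promoters 1 was higher and none lower. Of the proximal Zfp genes 6 lie close together on chromosome 7. Among them Zfp579 went from 20.6% to 51.2% (Fisher exact test, adjusted p = 2.19e-09) and Zfp784 from 33.1% to 48.4% (Fisher exact test, adjusted p = 0.000237), whereas Zfp524 had 48.4% and 49.9% (Fisher exact test, adjusted p = 0.764). The proximal end of chromosome 7 had the third smallest gain of the proximal ends as a whole, with 10 of its 30 windows called lower in TCKO. The 25 distal Krt promoters with enough calls all lie on chromosome 15, and 9 were higher and none lower, with medians of 69.0% and 73.7%, and in the rest 17 of 85 were higher.

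Finally, 200 bp bins were called by a rule after that of the study's methods for hyper-CG-DMRs and hypo-CG-DMRs, which are differentially methylated regions that gained or lost CG methylation. A bin needed at least 4 CG cytosines, a mean of at least 4 calls per cytosine in each library, a difference over 40 points and an adjusted p below 0.05. Of the testable bins, 1335 of 53864 proximal bins (2.48%) and 1250 of 45850 distal bins (2.73%) were hypermethylated in TCKO, against 2.96% of all autosomal bins and 2.98% in the rest, a ratio to the rest of 0.833 (0.790 to 0.879) and 0.916 (0.867 to 0.968). The share fell steeply towards the terminus. In the outermost 100 kb only 5 of 1706 proximal bins (0.293%, 0.125% to 0.684%) and 3 of 1417 distal bins (0.212%, 0.0720% to 0.621%) were hypermethylated. Over the outer 500 kb the shares were 1.37% and 1.01%, or 0.460 (0.385 to 0.548) and 0.341 (0.268 to 0.433) times that of the rest. At 2 to 3 Mb from the terminus they were 2.94% and 3.62%, and the distal share there was 1.22 times that of the rest (1.12 to 1.32).

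**Figure D5:**
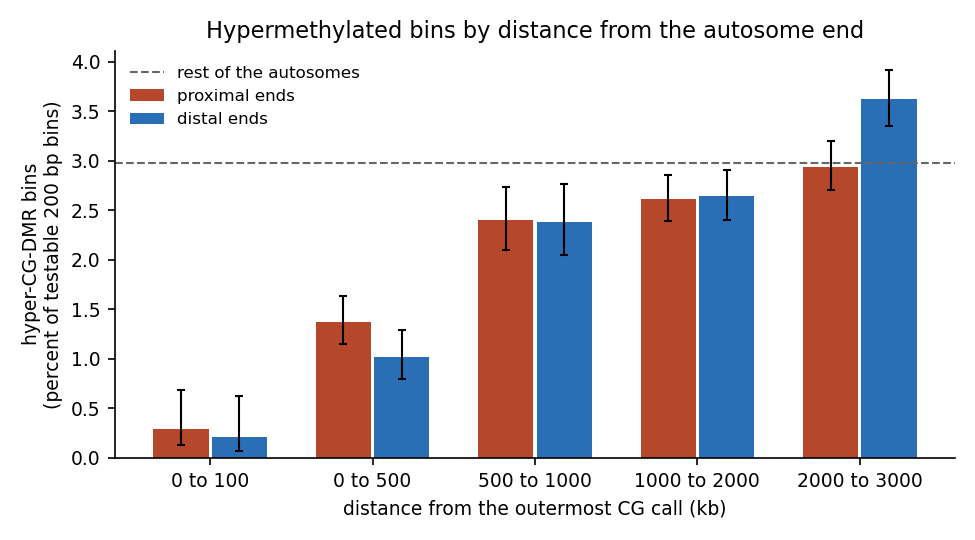
Share of testable 200 bp bins called hypermethylated in TCKO (vertical axis, percent, bars from 0, with 95% Wilson intervals for counting error) by distance from the outermost CG call (horizontal axis, kb; the second pair of bars includes the first) at proximal and distal ends, with a dashed line for the rest of the autosomes. The bars climb from 0.293% and 0.212% in the outermost 100 kb to 2.94% and 3.62% at 2000 to 3000 kb.

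Bins that lost methylation were rare everywhere. They numbered 31 at proximal ends (0.0576%) and 17 at distal ends (0.0371%), where 0.034% of all autosomal bins were called. The proximal share was 1.72 times that of the rest (1.20 to 2.47) and the distal share 1.11 times (0.687 to 1.79). Of the 31 proximal bins 10 lay on chromosome 11, and of the 17 distal bins 7 lay on chromosome 13 and 4 on chromosome 3. The same end of chromosome 11 held 68 of the 84 proximal CG dinucleotides that were at least 80% methylated in WT and at 0% in TCKO, among those with at least 5 calls in each library. That is 3.96 per 1000 at the proximal end of chromosome 11, 0.285 per 1000 over all proximal ends, 0.143 over distal ends and 0.162 over the rest, while the rest of chromosome 11 had 0.620 per 1000. Without chromosome 11 the proximal ends had 21 bins that lost methylation (0.0411%, 1.32 times the rest) and 0.0576 such dinucleotides per 1000, against 0.137 per 1000 in the rest. The ratio for bins thus went from 1.72 to 1.32 without that chromosome. The smaller ratio rests on 21 bins and no interval was computed for it, so it does not show an excess. The value for dinucleotides fell below that of the rest, but the rest was uneven too. Chromosomes 4, 6 and 8 held 252, 508 and 380 of its 1615 such dinucleotides and were not left out. The lower proximal value therefore does not show a deficit. The opposite change, from 0% in WT to 80% or more, numbered 1.92 per 1000 at proximal and 2.44 at distal ends against 2.41 in the rest, and 0.777 and 1.37 per 1000 in their outer 500 kb.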

How the data were processed

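WGBS of primary osteoblasts, cultured for 3 days, gave 1 WT and 1 TCKO library. The authors aligned reads to GRCm38 with BSMAP 2.74, kept unique alignments, and deposited raw, unnormalized call counts for every CG cytosine of either strand, methylated and total. Whether duplicate reads were removed is not given in the sources used here. Repeats with identical copies give no unique reads, so the repeated part of the ends is seen through sequence that differs between copies.

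Levels were methylated over all calls, pooled. Pooled shares carry Wilson intervals, differences Newcombe intervals, and differences of gains intervals from binomial variances. Calls were tested with 2-sided Fisher exact tests and Benjamini-Hochberg adjustment. The code was tested on simulated data. Named items followed a rule of size: extreme ends, the 3 windows and 5 promoters with the largest gains, the 3 windows and 2 promoters with the lowest differences (windows with at least 2000 and promoters with at least 50 calls in each library), and the bins with the lowest p. Some items that this rule takes are not reported here. Masked bases are those in lower case in the GRCm38 reference, and genes are from GENCODE M21. Members and lists were chosen with earlier results of these data known. Computations used Python 3.11.15, numpy 2.4.6, pandas 2.3.3, scipy 1.17.1, numba 0.67.0 and matplotlib 3.10.9. Alternatives are given in the closing section.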

Additional observations from a re-analysis of the deposited data

How the results depend on the processing

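In all, 131 alternative values were computed for 15 results under 20 settings, and 118 kept their direction and their side of the threshold. The 3 gains over the ends and the rest kept their sign under every setting. The WT level of the proximal ends minus that of the rest (0.183 points) became -0.496 with 1 Mb ends, -1.69 with 0.5 Mb ends, -0.153 as a mean of chromosomes, -0.356 on unmasked cytosines and 0.0366 without chromosome 18. The distal gain minus that of the rest (-0.137 points) became -0.0118 with 5 Mb ends, 0.0893 as a mean of cytosines, 0.0224 without chromosome 18 and -0.0459 on unmasked cytosines. Distal ends with a smaller gain than their chromosome numbered 17 with 1 Mb and 17 with 0.5 Mb ends, in place of 9. The proximal gain minus that of the rest (-1.497 points) stayed negative but moved to -2.99 with 1 Mb ends, -4.16 with 0.5 Mb ends and -0.826 on unmasked cytosines. Windows lower in TCKO by any amount numbered 82 proximal and 51 distal, in place of 45 and 21. The cause of these shifts was not tested. Ends of 0.5 Mb, unmasked cytosines, classes of masked bases and the omission of windows of departing depth were chosen after seeing the data. No paired analysis was possible because each group holds 1 library. With 4.50 to 6.26 calls per cytosine, the level of a single cytosine is imprecise, and the variation between animals is not known.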
